A study of Bos taurus with 64 samples.

Results

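miR-486 (bta-miR-486 in the table) is a microRNA (miRNA), a short RNA that lowers the output of messenger RNAs it pairs with, and it was 1 of the 1030 miRNA names counted in skeletal muscle of beef and dairy steers. It was chosen by its row in the deposited count table, with earlier results of these data known, and was among the 318 miRNAs abundant enough to be tested. The study sequenced 64 muscle libraries from Charolais, a beef breed, and Holstein-Friesian, a dairy breed. Within each breed it took steers at both ends of residual feed intake (RFI), which is what an animal eats beyond the amount predicted for its size and growth, so that a low-RFI steer is the more feed-efficient. Samples were taken at the close of each of a pair of consecutive feeding phases of 70 days, with 14 days of acclimatisation between them. The labels used here name neither the muscle nor the age of the steers.

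The 8 groups held 8 libraries each. On the later, high-concentrate diet, which was mainly rolled barley with soya bean meal, molasses and a restricted amount of grass silage, they were low-RFI Holstein-Friesian, high-RFI Holstein-Friesian, low-RFI Charolais and high-RFI Charolais steers. On the earlier diet of fresh zero-grazed grass the same 4 kinds of steer were sampled. All animals passed through grass before concentrate, so diet cannot be told apart from phase order, age or separate handling of the phases. There were 59 steers behind the 64 libraries, since 5 of them were sampled on both diets.

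In mammals miR-486 is processed from a transcript within ANK1, the gene of ankyrin-1, a membrane skeleton protein of erythrocytes with a short form in striated muscle. In the RefSeq annotation of cattle MIR486 likewise lies within ANK1. The miRNA is enriched in skeletal and cardiac muscle and is also abundant in red blood cells. In mouse and human cells it represses FOXO1, a transcription factor that Akt growth signalling holds back, and in mouse myoblasts it represses PAX7, a satellite cell factor.

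miR-486 was the second most abundant miRNA in 56 of the 64 libraries and the third in the other 8. Its counts ran from 383418 to 1770806 per library, out of total counts of 4795936 to 12245101. It took 10.3% ± 2.56 of the counts (SD, n = 64), with a lowest share of 5.15% and a highest of 18.3%. At that depth the 95% Wilson interval of the lowest share was 5.13 to 5.16% and that of the highest 18.28 to 18.33%. Such intervals cover counting error only, and the spread between steers was far wider. Levels below are CPM, counts per 1000000 of the library, after scaling the libraries by trimmed mean of M values (TMM), which sets the bulk of miRNAs equal between libraries. The scaling matters here because miR-10b held 60.3% ± 6.98 of the counts on concentrate and 53.3% ± 9.48 on grass (SD, n = 32 each), and TMM factors ran from 0.511 to 2.43. A pair of Holstein-Friesian grass libraries stood apart from their groups: high-RFI replicate 1, with the highest TMM factor, and low-RFI replicate 2, highest in the smooth muscle miRNA miR-143. The levels below include both, and the main tests that use them are also given without them.

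Among the marker miRNAs of striated muscle miR-133a and miR-133b were abundant, and the markers of erythrocytes were present in every library. The summed level of 6 striated muscle miRNAs (miR-1, miR-133a, miR-133b, miR-206, miR-208b and miR-499) ran from 35600 to 154000 CPM over the 64 libraries. That of the erythrocyte miRNAs miR-451 and miR-144 ran from 300 to 49600 CPM. The muscle sum was mostly miR-133a and miR-133b, which averaged 74310 and 8983 CPM over the 64 libraries. The other muscle markers averaged less than miR-451, which was at 6141 CPM. miR-208b was at 825 CPM, miR-499 at 346, miR-1 at 247 and miR-206 at 14.6 CPM. The liver miRNA miR-122 was at 0 in 51 of 64 libraries. In bulk tissue, fewer cells of a type and less RNA per cell cannot be told apart.

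The mean level of miR-486 was highest in low-RFI Charolais steers on grass, at 133158 ± 42285 CPM (SD, n = 8, as for all 8 groups), where the lowest library held 71391, the median was 124956 and the highest 204367. High-RFI Charolais steers on concentrate came next with 128543 ± 38718 CPM (lowest 75327, median 132119, highest 192912). Low-RFI Charolais steers on concentrate had 116780 ± 21951 CPM (97539, 107498 and 154788). Thus 3 of the 4 Charolais groups stood at the top of the order. Low-RFI Holstein-Friesian steers on concentrate were the fourth with 107210 ± 19516 CPM (90237, 99745 and 146488), and high-RFI Charolais steers on grass the fifth with 105655 ± 14944 CPM (88821, 105843 and 130209). The 3 lowest groups were all Holstein-Friesian. High-RFI steers of that breed on concentrate had 87802 ± 28673 CPM (47142, 96450 and 117146). High-RFI steers on grass had 82839 ± 21903 CPM (51911, 80788 and 117153), and low-RFI steers on grass had 76554 ± 20893 CPM (47660, 78024 and 112848).

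Neighbours in that order overlapped. Of the 7 steps between neighbouring means, only that from high-RFI Charolais on grass down to high-RFI Holstein-Friesian on concentrate, 17853 CPM, was larger than the smaller SD of its pair, 14944 CPM. The others were smaller than either SD. The coefficient of variation within a group ran from 14.1% to 32.7%, with a median of 26.8%. Of the sum of squares of log2 CPM across libraries, breed took 25.9%, the interaction of breed, diet and RFI class 5.38%, diet 3.25%, RFI class 1.29% and the spread within groups 62.4%.

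**Figure D1:**
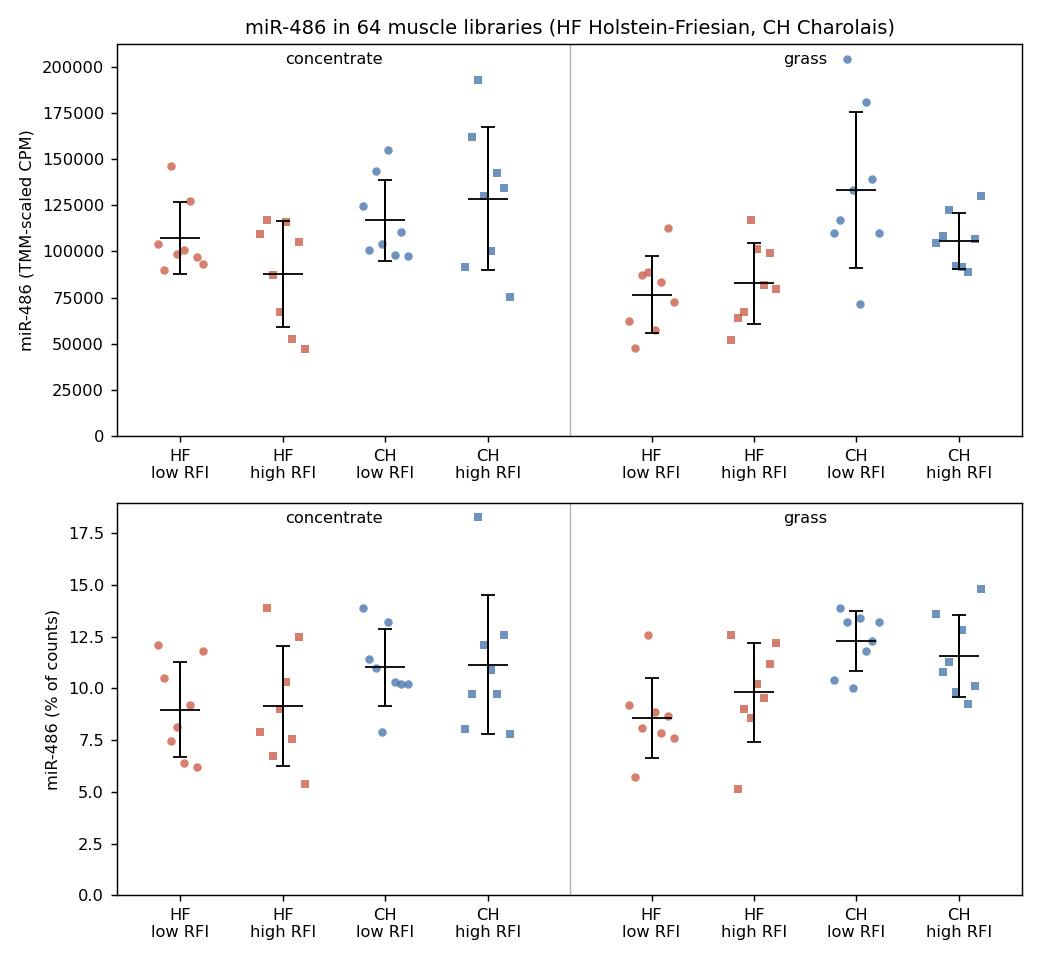
miR-486 in every library, as TMM-scaled CPM (upper panel) and as percent of the library's counts (lower panel), with Holstein-Friesian (HF, red) left of Charolais (CH, blue) and low RFI (circles) left of high RFI (squares) within each diet; bars are the group mean ± SD of 8 libraries. On grass, 14 of 16 Holstein-Friesian libraries lay below the Charolais median of 109986 CPM.

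The comparison of breeds sets dairy muscle against beef muscle. miR-486 was lower in Holstein-Friesian than in Charolais muscle. Over both diets and RFI classes, Holstein-Friesian libraries ran from 47142 to 146488 CPM with a median of 89533, and Charolais libraries from 71391 to 204367 CPM with a median of 110340. The breeds overlapped, but 26 of 32 Holstein-Friesian libraries were below the Charolais median. The means were 88601 ± 24781 CPM in Holstein-Friesian and 121034 ± 31932 CPM in Charolais steers (SD, n = 32 each). The log2 difference was -0.46 ± 0.10 (SE; 95% interval -0.65 to -0.27), a level 0.729 times that of Charolais (0.639 to 0.832), with an adjusted p of 0.000683 by edgeR's quasi-likelihood test with Benjamini-Hochberg adjustment, the test behind every adjusted p of a single miRNA given here. In that comparison 21.7% of the 318 tested miRNAs were called, 69 in all, with 10.7% lower and 11% higher, so a lower call was not rare. Among the 69, miR-486 had the highest mean level, ahead of the smooth muscle miRNA miR-143 (0.31) and miR-22-3p (-0.32), and the fifth smallest p. The call held in each of 14 other settings of scaling, filter, tool, block and covariate (adjusted p from 0.000106 to 0.00687) and without any 1 of the 64 libraries (-0.49 to -0.41, adjusted p from 0.000167 to 0.00145). Without the pair of libraries that stood apart it was -0.42, and miR-143 was no longer called (0.22, adjusted p = 0.0656).

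On grass miR-486 was also lower in the dairy breed. Holstein-Friesian libraries had a lowest level of 47660, a median of 80788 and a highest of 117153 CPM. Charolais libraries had a lowest of 71391, a median of 109986 and a highest of 204367 CPM, so the highest Holstein-Friesian library was just above the Charolais median. The means were 79696 ± 20931 CPM in Holstein-Friesian and 119406 ± 33769 CPM in Charolais steers (SD, n = 16 each), a log2 difference of -0.57 ± 0.13 (95% interval -0.84 to -0.31, adjusted p = 0.00156). Without the pair of Holstein-Friesian libraries that stood apart it was -0.47 (adjusted p = 0.006). Over this and 14 other settings the adjusted p ran from 0.000794 to 0.0247, and without single libraries from 0.000379 to 0.00495. Here 29.9% of miRNAs were called, 14.8% higher and 15.1% lower.

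On concentrate Holstein-Friesian libraries had a lowest level of 47142, a median of 99745 and a highest of 146488 CPM, against 75327, 117681 and 192912 CPM in Charolais libraries. Again 14 of 16 Holstein-Friesian libraries lay below the Charolais median. The means were 97506 ± 25726 CPM in Holstein-Friesian and 122661 ± 31005 CPM in Charolais steers (SD, n = 16 each), and the log2 difference of -0.34 ± 0.13 (-0.61 to -0.07) had an unadjusted p of 0.0148 in edgeR's test but did not pass over all miRNAs (adjusted p = 0.249). Only 1.57% of miRNAs, 5 of 318, were called on concentrate, 0.943% higher and 0.629% lower (3 miRNAs with the animal as a random block). Passing on grass and not on concentrate does not show that the breeds differed more on grass: the test of that difference gave 0.24 ± 0.19 (-0.14 to 0.62, adjusted p = 0.445), where 3.46% of miRNAs were called, 2.2% higher and 1.26% lower. It was 0.10 without the 2 libraries that stood apart and 0.09 with total-count scaling.

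As a share of counts, which no scaling factor enters, miR-486 was also lower in the dairy breed. It took 9.12% ± 2.33 of the counts in Holstein-Friesian and 11.5% ± 2.23 in Charolais libraries (SD, n = 32 each), and 24 of 32 Holstein-Friesian shares were below the Charolais median of 11.1%. On grass the shares were 9.19% ± 2.20 in Holstein-Friesian and 11.9% ± 1.71 in Charolais libraries, and on concentrate 9.06% ± 2.53 in Holstein-Friesian and 11.1% ± 2.63 in Charolais libraries (SD, n = 16 each). Tested with total-count scaling, which uses these shares, the log2 differences were -0.33 over both diets (adjusted p = 0.00687), -0.38 on grass (0.0247) and -0.29 on concentrate (0.539). That scaling shifted the median miRNA by 0.14 over both diets and by 0.20 on grass. Set against the moved median, miR-486 stood at -0.45 over both diets and -0.58 on grass. The split of calls moved with it, to 37 higher and 3 lower over both diets in place of 35 and 34, and to 47 and 3 on grass in place of 47 and 48. Upper-quartile scaling gave 60 and 21 over both diets and 64 and 24 on grass.

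**Figure D2:**
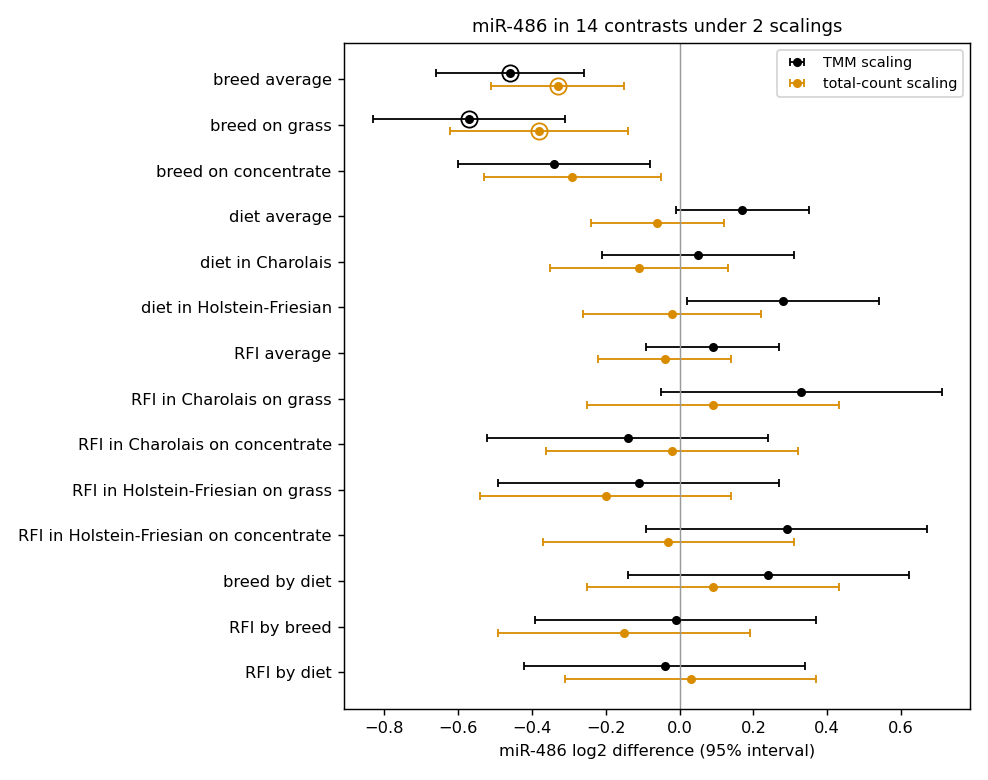
Log2 difference of miR-486 (x axis, with 95% interval) in each of 14 contrasts (y axis), under TMM scaling (black) and total-count scaling (orange); contrasts are Holstein-Friesian minus Charolais, concentrate minus grass and low minus high RFI, and rings mark an adjusted p under 0.05. The breed average and the breed difference on grass are ringed under both scalings, and the diet average moves from 0.17 with TMM to -0.06 with total counts.

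The other muscle miRNAs were mixed. Of the 8 myomiRs, the miRNAs named for their enrichment in muscle, 2 were lower in Holstein-Friesian steers on grass, 1 was higher and 5 did not pass, with a median of -0.20 beside 0.01 for all miRNAs and a value above 0 for 1 of the 8. Of all 318 miRNAs 15.1% were lower on grass and 14.8% higher. The lower pair were miR-486 and miR-133a (-0.43 ± 0.15, adjusted p = 0.0175), a repressor of the muscle transcription factor SRF, which stood at 64800 ± 23300 CPM in Holstein-Friesian and 87900 ± 23000 CPM in Charolais steers (SD, n = 16 each). The miR-133a call was lost with upper-quartile (-0.32, adjusted p = 0.097) and total-count scaling (-0.21, adjusted p = 0.38). miR-206, which promotes myoblast differentiation, was higher (0.81 ± 0.22, adjusted p = 0.00424). Both calls held without the 2 libraries that stood apart, at -0.37 for miR-133a (adjusted p = 0.0352) and 0.90 for miR-206 (adjusted p = 0.00266). miR-133b, made from the same transcript as miR-206, stood at -0.21 (adjusted p = 0.392). miR-208b and miR-499, which lie in myosin genes and go with slow fibres, stood at -0.19 and -0.08 without passing, miR-208a, best known from heart muscle, at -0.15 and miR-1, which drives differentiation, at -0.31 (adjusted p = 0.0604). Over both diets 1 of 8 was lower (miR-486) and 1 higher (miR-206, 0.89), with a median of -0.14 beside -0.02 for all miRNAs. Of all 318 miRNAs 10.7% were lower in that comparison and 11% higher. On concentrate miR-206 (0.97) alone of the 8 was called, where 0.943% of all miRNAs were higher.

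Since red blood cells also hold miR-486, the erythrocyte miRNAs stand beside the breed difference. miR-451, which is made by a Dicer-independent route and is the leading miRNA of red blood cells, ran from 767 to 11300 CPM in Holstein-Friesian steers on grass (median 2660) and from 297 to 10300 CPM in Charolais steers on grass (median 1680). The means were 3410 ± 2770 CPM in Holstein-Friesian and 3340 ± 3430 CPM in Charolais steers (SD, n = 16 each), a log2 difference of 0.03 ± 0.51 (adjusted p = 0.978). Its cluster partner miR-144 stood at 0.12 ± 0.52 (adjusted p = 0.878). On concentrate miR-451 averaged 6380 ± 5500 CPM in Holstein-Friesian and 11400 ± 13200 CPM in Charolais steers, with a log2 difference of -0.90 ± 0.52 (adjusted p = 0.35), and miR-144 stood at -1.05 (adjusted p = 0.267). With miR-451 as a covariate in the edgeR fit, the miR-486 breed difference was -0.46 over both diets (adjusted p = 0.000559) and -0.57 on grass (0.00175). That fit had 1 miR-451 slope for all libraries, while the Pearson r of miR-451 with miR-486 was -0.42 on grass and 0.25 on concentrate. It could therefore move these values little, and the part of red blood cells in the breed difference was not tested.

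Of 8 further miRNAs abundant in erythrocytes, 2 were lower in Holstein-Friesian steers over both diets, miR-15a (-0.34) and miR-92a (-0.29), with a list median of -0.24 beside -0.02 for all miRNAs. Of all 318 miRNAs 10.7% were lower there. On grass miR-15a stood at -0.25 and miR-92a at -0.18 without passing, and the median of the 8 was -0.09. On concentrate miR-15a was lower (-0.43, median of the list -0.41), where 0.629% of all miRNAs were lower. The miR-15a and miR-92a calls were lost with total-count scaling (-0.20 and -0.13 over both diets). Upper-quartile scaling also ended the miR-92a call over both diets (adjusted p = 0.0801) and the miR-15a call on concentrate (adjusted p = 0.0543).

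**Figure D3:**
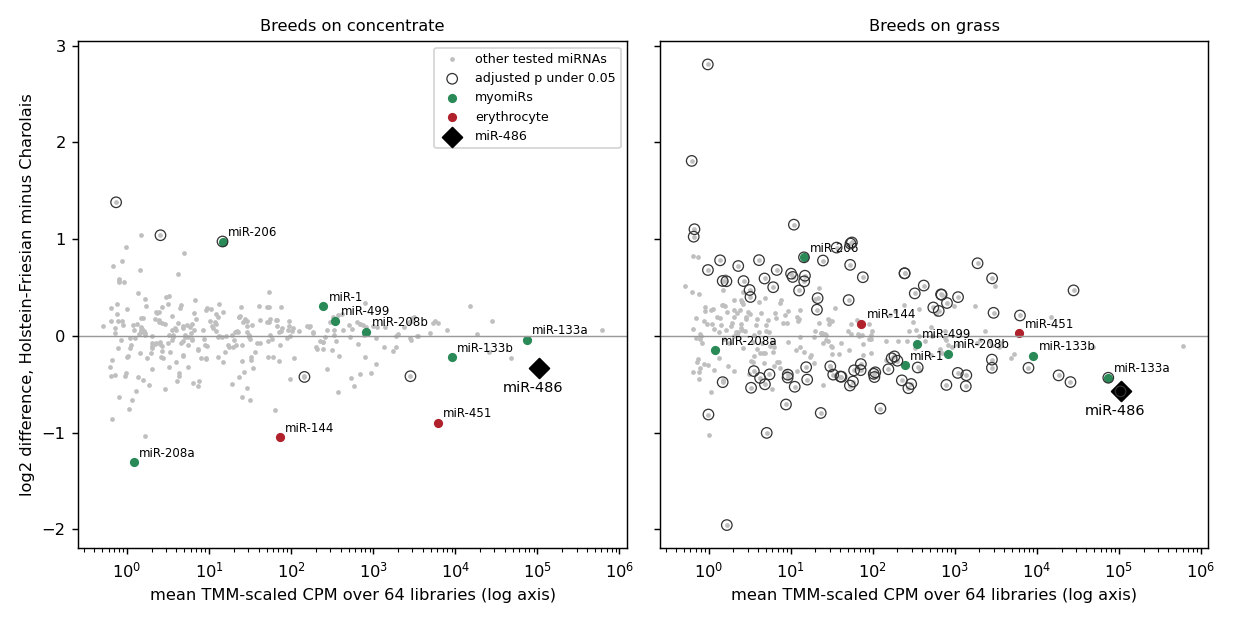
Log2 difference between the breeds, Holstein-Friesian minus Charolais (y axis), against mean TMM-scaled CPM over the 64 libraries (x axis, log scale) for the 318 tested miRNAs, on concentrate (left) and on grass (right); rings mark an adjusted p under 0.05, green points are the other myomiRs, red points the erythrocyte miRNAs and the black diamond miR-486. On grass miR-486 (-0.57) is the most abundant called miRNA, while miR-451 (0.03) and miR-144 (0.12) lie near 0.

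Of 8 miRNAs known in mammals to target FOXO1, 4 were tested and 2 were higher in Holstein-Friesian than in Charolais steers on grass, miR-27a-3p (0.24) and miR-139 (0.27, lost with total-count scaling at an adjusted p of 0.0541), where 14.8% of all 318 miRNAs were higher. Of 7 regulators of satellite cells, the stem cells of muscle, 5 were tested and 3 were higher in Holstein-Friesian steers on grass: miR-206, miR-31 (1.1) and miR-27b (0.21), against the same 14.8% of all miRNAs. Over the 64 libraries miR-31 averaged only 0.673 CPM and miR-206 14.6 CPM, while miR-27b averaged 6230 CPM. In mouse, miR-206 represses PAX7 as miR-486 does, miR-31 represses MYF5 and miR-27b represses PAX3. On concentrate miR-27a-3p stood at 0.18 and miR-31 at 0.72, neither of which passed. All 3 fibroblast marker miRNAs were also higher in Holstein-Friesian steers on grass, and their sum averaged 442 ± 232 CPM in Holstein-Friesian steers (245 to 1200) and 285 ± 69.8 CPM in Charolais steers (SD, n = 16 each). Without the 2 libraries that stood apart, the values on grass were 0.24 for miR-27a-3p, 0.32 for miR-139, 1.15 for miR-31 and 0.24 for miR-27b, and 0.67 for miR-214, 0.67 for miR-199a-3p and 0.61 for miR-199a-5p, the fibroblast markers, and each was still called. The part of the fibroblast markers in these results was not tested.

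Diet asked how muscle of steers on concentrate differs from that on grass. miR-486 averaged 110084 ± 30801 CPM on concentrate and 99551 ± 34215 CPM on grass (SD, n = 32 each), and 24 of 32 concentrate libraries were above the grass median of 95677 CPM. The log2 difference of 0.17 ± 0.09 (-0.02 to 0.36) did not pass (adjusted p = 0.17), where 34% of miRNAs were called, 17.9% higher and 16% lower. With total-count scaling it was -0.06, the median miRNA shifted by -0.26, and 7 miRNAs were then higher and 118 lower, in place of 57 and 51. Set against the shifted median, miR-486 stood at 0.18. miR-486 took 10.1% ± 2.74 of the counts on concentrate and 10.6% ± 2.38 on grass (SD, n = 32 each).

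Within Holstein-Friesian steers miR-486 averaged 97506 ± 25726 CPM on concentrate and 79696 ± 20931 CPM on grass (SD, n = 16 each), with 13 of 16 concentrate libraries above the grass median and a log2 difference of 0.28 ± 0.13 (0.02 to 0.55, adjusted p = 0.11). In Charolais steers it averaged 122661 ± 31005 CPM on concentrate and 119406 ± 33769 CPM on grass (SD, n = 16 each), with a difference of 0.05 ± 0.13 (adjusted p = 0.822). Calls made up 24.2% of miRNAs in Holstein-Friesian (10.7% higher, 13.5% lower) and 20.8% in Charolais steers (9.43% higher, 11.3% lower). With total-count scaling the values were -0.02 in Holstein-Friesian and -0.11 in Charolais steers, or 0.27 and 0.09 against the median miRNA. Without the 2 libraries that stood apart they were 0.21 in Holstein-Friesian (adjusted p = 0.273) and 0.11 in Charolais steers (adjusted p = 0.564). Neither passed with all libraries, but some single omissions brought a pass. The diet average passed without low-RFI Charolais grass replicate 3 or 6, high-RFI Charolais grass replicate 3 or 8, high-RFI Holstein-Friesian grass replicate 4 or 7, low-RFI Holstein-Friesian grass replicate 7, low-RFI Holstein-Friesian concentrate replicate 2, high-RFI Charolais concentrate replicate 5 or high-RFI Holstein-Friesian concentrate replicate 8 (0.23 to 0.25). Over all 64 omissions its adjusted p ran from 0.0218 to 0.179. The Holstein-Friesian difference passed without any 1 of 17 libraries, of which 12 are Charolais libraries outside that comparison: low-RFI grass replicates 1, 3, 5, 6 and 7, high-RFI grass replicates 2, 3, 6 and 8 and high-RFI concentrate replicates 2, 5 and 6 (0.34 without each). The 5 from Holstein-Friesian steers were high-RFI grass replicate 4 (0.38) or 7 (0.36), low-RFI grass replicate 7 (0.38), low-RFI concentrate replicate 2 (0.35) and high-RFI concentrate replicate 8 (0.39, adjusted p = 0.017, against up to 0.182 without others). Leaving out any library also moved the TMM reference library, which is low-RFI Holstein-Friesian grass replicate 2 when all 64 are used. With factors averaged over all 64 choices of reference the diet average was 0.19 (adjusted p = 0.0906).

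The erythrocyte miRNAs moved with diet. miR-451 averaged 8910 ± 10300 CPM on concentrate and 3370 ± 3070 CPM on grass (SD, n = 32 each), a log2 difference of 1.30 ± 0.37 (adjusted p = 0.00526, and 0.95 with an adjusted p of 0.0605 under total-count scaling). miR-144 rose by 1.09 (adjusted p = 0.0181, and 0.72 with an adjusted p of 0.162 under total-count scaling). Of the 8 further erythrocyte-abundant miRNAs 5 were higher on concentrate (miR-15b, miR-16a, miR-16b, miR-25 and miR-93), against 17.9% of all 318 miRNAs. The median of the 8 was 0.28 beside 0.01 for all miRNAs. None of the 5 passed with total-count scaling, where miR-16a stood at -0.07 and miR-93 at 0.27. By breed, miR-451 differed by 0.84 in Holstein-Friesian (adjusted p = 0.239) and 1.76 in Charolais steers (adjusted p = 0.0106), and miR-144 by 0.51 (adjusted p = 0.511) and 1.68 (adjusted p = 0.0166). The erythrocyte pair thus passed in Charolais, where the miR-486 value was 0.05, and not in Holstein-Friesian, where it was 0.28. Passing in Charolais alone does not show that the diet difference of the pair differs between the breeds. In the test of that difference 0 of the 2 erythrocyte miRNAs were called (median -1.05), where 3.46% of all miRNAs were called. Of 6 leukocyte marker miRNAs 5 were also higher on concentrate under TMM, among them miR-223 (0.81) and miR-142-5p (0.69), against the same 17.9% of all miRNAs. The median of the 6 was 0.47, and their values with total-count scaling are not given here. Their sum averaged 910 ± 592 CPM on concentrate and 584 ± 292 CPM on grass (SD, n = 32 each). With miR-451 as a covariate, the diet value of miR-486 was 0.18 over both breeds (adjusted p = 0.226), 0.29 in Holstein-Friesian (adjusted p = 0.0943) and 0.07 in Charolais steers (adjusted p = 0.842). As for breed, that fit had 1 miR-451 slope for all libraries and could move these values little. It therefore does not test the part of red blood cells. The part of the leukocyte markers was not tested.

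RFI asked which miRNAs go with feed efficiency, and miR-486 did not pass in any RFI comparison. In Charolais steers on grass low-RFI libraries averaged 133158 ± 42285 CPM and high-RFI libraries 105655 ± 14944 CPM (SD, n = 8 each), and 7 of 8 low-RFI libraries were above the high-RFI median. The log2 difference was 0.33 ± 0.19 (-0.05 to 0.71, adjusted p = 0.86). In the same breed on concentrate the sign was opposite, with 116780 ± 21951 CPM in low RFI and 128543 ± 38718 CPM in high RFI (-0.14 ± 0.19, adjusted p = 0.952). Holstein-Friesian steers on concentrate had 107210 ± 19516 CPM in low RFI and 87802 ± 28673 CPM in high RFI (0.29 ± 0.19, adjusted p = 0.631), and 6 of 8 low-RFI libraries were above the high-RFI median. On grass they had 76554 ± 20893 CPM in low RFI and 82839 ± 21903 CPM in high RFI (-0.11 ± 0.19, adjusted p = 0.997), and -0.18 without the 2 libraries that stood apart. The values thus pointed up in low RFI in one diet and down in the other in each breed, and the diets were reversed between the breeds. With total-count scaling the value in Holstein-Friesian steers on concentrate was -0.03, or 0.34 against the median miRNA, which that scaling placed at -0.37. Averaged over breeds and diets the difference was 0.09 ± 0.09, with a 95% interval of -0.10 to 0.28, a level in low RFI between 0.935 and 1.22 times that in high RFI.

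In all 5 RFI comparisons edgeR called 0% of miRNAs at an adjusted p under 0.05, and DESeq2 and limma-voom also called 0. At an unadjusted p under 0.05 edgeR gave 15 miRNAs in Charolais steers on grass, 10 in Charolais steers on concentrate, 17 in Holstein-Friesian steers on grass, 34 in Holstein-Friesian steers on concentrate and 11 in the average. The RFI effect differed between breeds by -0.01 ± 0.19 for miR-486 and between diets by -0.04 ± 0.19 (adjusted p = 0.994 for each).

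How miR-486 varied from steer to steer was set beside muscle and blood miRNAs within each diet, where every library is a different animal. On concentrate the highest library stood 4.09-fold above the lowest in miR-486, 2.81-fold in miR-133a, 2.92-fold in miR-133b, 4.37-fold in miR-208b, 6.06-fold in miR-499 and 10.7-fold in miR-206, and 73.3-fold in miR-451 and 58.5-fold in miR-144. On grass the ranges were 4.29-fold in miR-486, 4.40-fold in miR-133a, 4.75-fold in miR-133b, 3.25-fold in miR-208b, 5.51-fold in miR-499 and 8.89-fold in miR-206, and 37.8-fold in miR-451 and 67.9-fold in miR-144. The range of miR-486 lay within that of the 5 muscle miRNAs and was narrower than that of both erythrocyte miRNAs. Over all 64 libraries, for each miR-451 a library held a median of 25.6 miR-486, with a range from 3.48 to 646, while for each miR-133a it held a median of 1.35, with a range from 0.57 to 3.86. These are ratios of counts, which library scaling does not change.

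On grass, log2 miR-486 rose with miR-133a across the 32 libraries (Pearson r = 0.61, adjusted p = 0.00203; Spearman rho = 0.57, adjusted p = 0.00632; permutation tests with 100000 resamples, adjusted over 16 relations). It rose likewise with miR-133b (r = 0.59, adjusted p = 0.00203; rho = 0.54, adjusted p = 0.00976). Without the 2 libraries farthest from the median of the partner, r was 0.48 with miR-133a and 0.46 with miR-133b (adjusted p = 0.0419 each by permutation). By Spearman neither passed there (adjusted p = 0.0601 and 0.0781 by permutation). Without the 2 libraries that stood apart r was 0.60 with miR-133a and 0.56 with miR-133b (adjusted p = 0.00816 each by permutation). The other 3 muscle miRNAs tested did not pass on grass, with r = 0.34 for miR-208b (adjusted p = 0.132 by permutation), 0.30 for miR-499 (0.177) and -0.19 for miR-206 (0.356). The muscle marker miR-1 was not among the 16 relations tested, and its r was 0.55 on grass and -0.257 on concentrate. With total-count scaling miR-133a and miR-133b still passed by Pearson (0.54, adjusted p = 0.00588, and 0.42, adjusted p = 0.043, by permutation) but not by Spearman. Over deviations from the group means, which remove breed and RFI class, miR-133b passed (r = 0.53, adjusted p = 0.0137 by permutation) and miR-133a did not (0.42, adjusted p = 0.0648). On concentrate the values were 0.00 with miR-133a (adjusted p = 0.988 by permutation) and 0.17 with miR-133b (adjusted p = 0.403), and the difference between the diets was not tested.

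**Figure D4:**
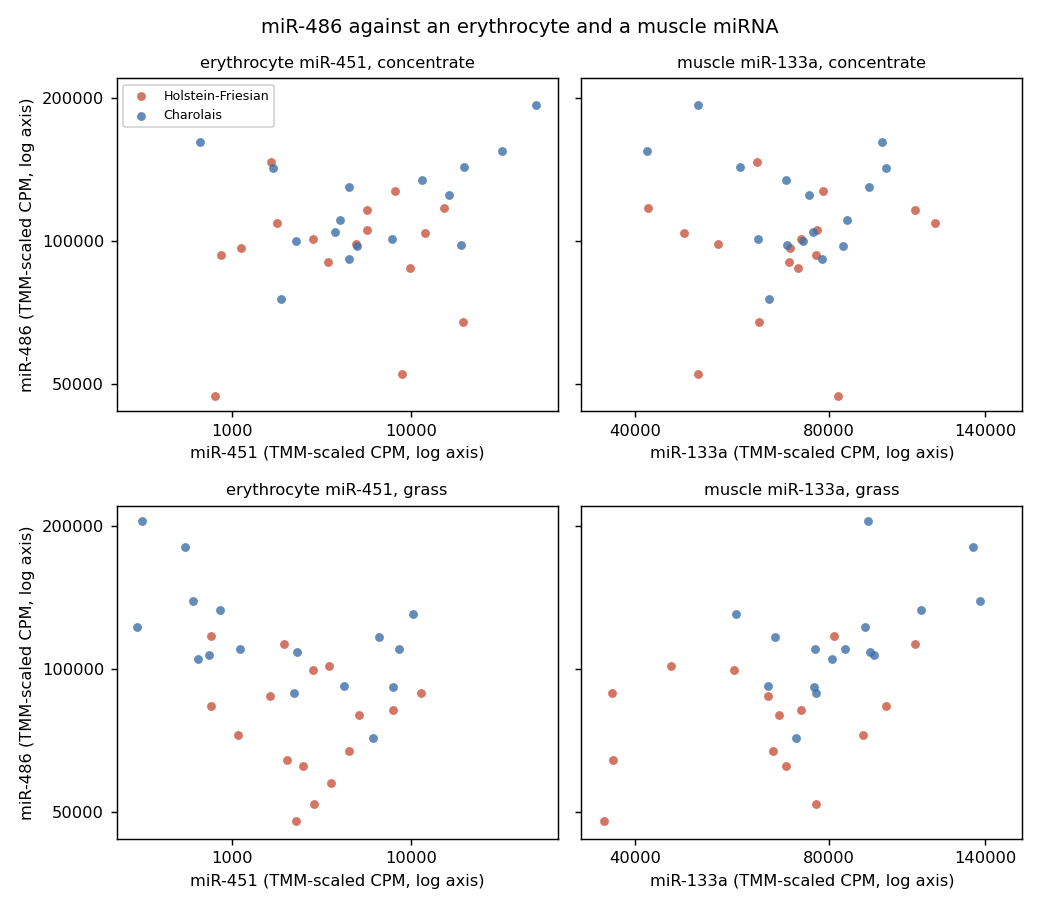
miR-486 (y axis, TMM-scaled CPM, log scale) against the erythrocyte miRNA miR-451 (left) and the muscle miRNA miR-133a (right; x axes, TMM-scaled CPM, log scales) in the 32 libraries of concentrate (top) and of grass (bottom), Holstein-Friesian in red and Charolais in blue. On grass miR-486 goes up with miR-133a (r = 0.61), and the 3 libraries lowest in miR-451, all Charolais, hold 122429 to 204367 CPM of miR-486.

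With the erythrocyte miRNAs the relation depended on the scaling. On grass miR-486 went down as miR-451 went up (r = -0.42, adjusted p = 0.0428, and rho = -0.38, adjusted p = 0.0759, by permutation). It also went down as miR-144 went up (r = -0.48, adjusted p = 0.0208, and rho = -0.44, adjusted p = 0.05, by permutation). Without the 2 libraries farthest in miR-451, r with it was -0.29 and did not pass (adjusted p = 0.333 by permutation). Over deviations from group means it was -0.40 (adjusted p = 0.0711 by permutation). For miR-144, r was -0.47 without its 2 farthest libraries (adjusted p = 0.0419 by permutation), where rho did not pass (adjusted p = 0.139). Over deviations from group means r with miR-144 was -0.46 (adjusted p = 0.0455 by permutation). Without the 2 libraries that stood apart r was -0.47 with miR-451 and -0.51 with miR-144, and both passed by Pearson. By Spearman miR-144 passed (adjusted p = 0.0475 by permutation) and miR-451 did not (adjusted p = 0.0785). With total-count scaling the values on grass turned to 0.17 and 0.18. On concentrate they were 0.25 with miR-451 and 0.27 with miR-144 under TMM, neither passing, and 0.60 and 0.65 with total-count scaling (adjusted p = 0.00192 and 0.00072 by permutation). miR-10b changed sign too: under TMM r was 0.42 on concentrate and 0.59 on grass, and with total-count scaling -0.63 and -0.44.

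Single libraries show both ends. The 3 libraries highest in miR-451 were all Charolais on concentrate. High-RFI replicate 3 held 49100 CPM of miR-451 and 192912 CPM of miR-486, the second highest of all 64, at 18.3% of its counts, the highest share. Low-RFI replicates 5 and 3 held 31700 and 19700 CPM of miR-451 with 154788 and 143266 CPM of miR-486. The libraries lowest in miR-451 were Charolais on grass, and some of them were as high in miR-486. Low-RFI replicate 3 held 316 CPM of miR-451 and 204367 CPM of miR-486, the highest of all, and low-RFI replicate 6 held 554 and 180657 CPM. Their TMM factors were low, at 0.644 and 0.652. As shares of counts they held 13.2% and 11.8% of miR-486, which ranked 10 and 20 of 64. Low-RFI concentrate replicates 5 and 3 held 13.2% and 11%. By TMM-scaled level, high miR-486 thus occurred both with much and with little miR-451. By share of counts the highest library was one with much miR-451.

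Ratios within a library, which are free of scaling, were compared between the breeds by a permutation test in each diet (10 ratios), and 0 passed after adjustment, with 2 at an unadjusted p under 0.05. On grass the log2 ratio of miR-486 to miR-10b was -2.55 ± 0.68 in Holstein-Friesian and -2.14 ± 0.39 in Charolais steers (SD, n = 16 each), a difference of -0.41 ± 0.20 (permutation p = 0.0452, adjusted p = 0.156). That difference passed without the 2 libraries that stood apart, at -0.49 (adjusted p = 0.0271 by permutation). The ratio to miR-133a was 0.35 ± 0.54 in Holstein-Friesian and 0.44 ± 0.35 in Charolais steers, a difference of -0.09 ± 0.16 (adjusted p = 0.657 by permutation). Among all libraries the ratio to miR-144 differed by -1.30 (p = 0.0472, adjusted p = 0.156 by permutation) and that to miR-451 by -1.15 ± 0.59 (adjusted p = 0.156 by permutation). On concentrate the differences were -0.29 to miR-133a, -0.34 to miR-10b and 0.24 to miR-451.

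The miRNAs most like miR-486 over the 64 libraries, among the 171 others averaging 10 CPM or more, were miR-101 (r = 0.647 of log2 CPM), miR-6119-5p (0.601), miR-191 (0.58), miR-10b (0.546) and miR-365-3p (0.529). These are descriptions over libraries that share their scaling and, for 5 steers, an animal. miR-101, which represses the chromatin enzyme EZH2, was also the nearest with total counts (0.677 for the pair), and its r was 0.651 on grass and 0.631 on concentrate. It was lower in Holstein-Friesian steers on grass (-0.33 ± 0.09, adjusted p = 0.00398) and on concentrate (-0.42 ± 0.09, adjusted p = 0.00489), neither of which passed with total-count scaling (-0.15 and -0.31). miR-10b turned to -0.479 with total counts. Over deviations from the group means the nearest were miR-10b (0.553), miR-6119-5p (0.538), miR-148b (0.531), miR-191 (0.515) and miR-101 (0.511). Most opposite were miR-497 (-0.525), which is of the miR-15 family, the lymphocyte miRNA miR-155 (-0.474) and miR-127 of an imprinted cluster (-0.451), and with total counts these stood at 0.06, -0.025 and 0.111.

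The 5 steers sampled on both diets allow a look within animals. A high-RFI Holstein-Friesian steer had 109254 CPM of miR-486 on concentrate and 51911 CPM on grass, where its library was the one with the highest TMM factor. The 4 Charolais steers had 161654, 143266, 134128 and 104309 CPM on concentrate, against 104812, 108531, 130209 and 133079 CPM on grass in the same order. One of these Charolais steers (143266 CPM on concentrate and 108531 CPM on grass) was classed low RFI on concentrate and high RFI on grass. By TMM the level was higher on concentrate in 4 of 5 steers, and by total counts in 1 of 5. With the animal as a block the breed difference was -0.45 as a random block (adjusted p = 0.00133) and -0.40 as a fixed block (0.00571).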

How the data were processed

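Skeletal muscle RNA of 64 samples was sequenced. Per the labels' protocols, a Qiagen RNeasy Plus Universal kit gave the RNA and an Illumina TruSeq stranded RNA kit the libraries, and the step that selects small RNA is not stated there. The authors deposited estimated counts, before any normalization, in 1 table of 1030 miRNA names by 64 libraries. No library had a count for 226 names, and 60 names had fractional values (over 0.001 from whole), miR-486 not among them. Tools that the submitters' processing notes list, with no role stated, are cutadapt 2.6, FastQC 0.11.8, edgeR 3.5 and R 3.4, beside the genome build ARS-UCD 1.2. No aligner, miRNA quantifier or annotation is named in the sources used here. Reads that a precursor's other arm or a near-identical copy shares with a miRNA could be split between names in a way that cannot be seen from the table.

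Groups came from the labels. Counts were rounded to whole numbers, and miR-2285b, with 3 empty cells, was left out. edgeR 4.0.16 in R 4.3.3 kept 318 miRNAs by filterByExpr, scaled libraries with TMM factors, and fitted a robust quasi-likelihood model to 8 group means (56 residual degrees of freedom). From it 14 contrasts were tested, with Benjamini-Hochberg adjustment over the 318 miRNAs within a contrast and a threshold of 0.05. CPM values are given as mean ± SD and log2 differences ± SE. Relations used log2 CPM with a prior count of 2 and two-sided permutation tests with 100000 resamples in scipy 1.17.1, which also compared the within-library ratios. The fit was tested on simulated data first.

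miR-486 and the lists of miRNAs set beside it were chosen with earlier results of these data known. The named miRNAs are miR-486, members of those lists that the text describes, the 5 highest and 3 lowest in correlation with miR-486, and the 5 highest over deviations from group means. All myomiRs and both erythrocyte miRNAs are named. Of the other lists mainly called members are named, and some tested members that were not called are left out. The result of 1 further list is not reported here. Sequences were not used here, so miRNAs of the same seed were not looked up. The most abundant called miRNAs (miR-143, miR-22-3p) were named after their values were seen.

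Replicates are separate steers except that 5 animals, by the animal numbers in the labels, were sampled on both diets. Their library pairs correlated by 0.288, -0.111, 0.165, 0.398 and 0.599 in deviations from group means. Alternatives tried were 4 other scalings, 2 other filters, DESeq2 1.42.0, limma-voom 3.58.1, the animal as a block, miR-451 as a covariate, the groups of a contrast alone, and leaving out libraries. Chosen after seeing the data were the omission of the 2 libraries that stood apart, log2 values for the search of libraries far from their group, TMM factors averaged over reference libraries, and the within-library ratios.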

Additional observations from a re-analysis of the deposited data

Results flagged for a closer look

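In 7 of 48 sets of 8 libraries examined for miR-486 and the miRNAs set beside it, the highest library stood apart from the other 7 by a gap whose share of the group's range was above Dixon's 95% critical value. Chance gives this in about 5% of groups whose values spread normally, and these values were not logged. On log2 values none of these 7 libraries stood apart by that measure, and 1 of the 48 sets held a library that did. High-RFI Charolais concentrate replicate 3 stood apart in 3 measures. Its miR-486 share of counts was 18.3%, where the next library of its group had 12.6%. Its miR-451 was 49100 CPM, where the next had 11500, and its miR-144 was 477 CPM, where the next had 119. In low-RFI Charolais steers on concentrate, replicate 5 had 641 CPM of miR-144, and the next library had 186. In low-RFI Holstein-Friesian steers on grass, replicate 4 had 11300 CPM of miR-451, and the next had 3560. In high-RFI Holstein-Friesian steers on grass, replicate 6 had 186 CPM of miR-144, and the next had 80. In low-RFI Holstein-Friesian steers on concentrate, replicate 1 had 132 CPM of miR-144, and the next had 68.4. The TMM-scaled level of miR-486, not logged, held no such library in any of the 8 groups.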

How the results depend on the processing

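The lower miR-486 in Holstein-Friesian steers, over both diets and on grass, kept its direction and its call in every alternative run, at -0.46 to -0.33 and -0.58 to -0.38, and without any 1 library (-0.49 to -0.41 and -0.63 to -0.49). On concentrate it kept its direction and was not called (-0.37 to -0.28, and -0.41 to -0.29 without single libraries). Total-count scaling reversed 6 values that had not passed, among them the diet average to -0.06, diet in Charolais to -0.11, diet in Holstein-Friesian to -0.02, the RFI average to -0.04 and RFI in Holstein-Friesian on concentrate to -0.03. The sixth was the difference of RFI effects between diets (0.03). The difference of RFI effects between breeds, near 0 throughout, changed sign with upper-quartile scaling (0.15), limma-voom (0.02) and without the 2 libraries that stood apart (0.02). That between diets also became 0.03 with limma-voom, 0 with RLE scaling, no filter, DESeq2 and averaged references, 0.01 with upper-quartile scaling, the 10 CPM filter and without the 2 libraries, and 0.05 without the repeated steers' concentrate libraries. The causes were not tested.

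Without single libraries the diet average ran from 0.16 to 0.25, diet in Holstein-Friesian from 0.23 to 0.39, diet in Charolais from 0.03 to 0.16, breed by diet from 0.13 to 0.28, RFI by breed from -0.07 to 0.06 and RFI by diet from -0.06 to 0.09. The RFI average ran from 0.02 to 0.11. RFI in Charolais ran from 0.22 to 0.39 on grass and -0.28 to -0.03 on concentrate, and in Holstein-Friesian from -0.31 to -0.12 on grass and 0.19 to 0.41 on concentrate. All 64 such fits took another TMM reference library and kept 320 to 325 miRNAs.

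Relations moved more. With total counts r on concentrate became 0.60 with miR-451, 0.65 with miR-144, -0.63 with miR-10b and 0.09 with miR-208b, and on grass 0.17 with miR-451, 0.18 with miR-144 and -0.44 with miR-10b. Over deviations from group means r on concentrate was -0.00 with miR-133a, 0.11 with miR-208b and 0.39 with miR-10b, and on grass -0.40 with miR-451, 0.42 with miR-133a and 0.35 with miR-206. Without the 2 farthest libraries it was 0.41 with miR-10b on concentrate and -0.29 with miR-451 on grass.

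The animal as a fixed or random replicate block (correlation 0.392) changed no miR-486 call. Counts of miRNAs called moved by over 1.5 times with total counts for the breed average (40 against 69), breed on grass (50 against 95), breed on concentrate (2 against 5), diet in Charolais (42 against 66) and breed by diet (1 against 11). The 10 CPM filter, which tests 173 miRNAs, gave 68 for the diet average (against 108), 41 for diet in Charolais and 2 for breed on concentrate. Breed on concentrate also gave 3 with limma-voom, 3 with the random block and 1 without the repeated steers' concentrate libraries. That omission gave 7 for breed by diet, as did the miR-451 covariate, which gave 30 for diet in Charolais. RFI in Holstein-Friesian on concentrate gave 5 with upper-quartile scaling, 2 without the repeated steers' concentrate libraries and 1 without the 2 libraries, against 0, and RFI by breed gave 2 with upper-quartile scaling. Without single libraries the counts ran from 60 to 90 for the breed average, 88 to 113 on grass and 3 to 8 on concentrate, 8 to 29 for breed by diet, 40 to 85 for diet in Charolais, 0 to 4 for RFI in Holstein-Friesian on concentrate and 0 to 1 for RFI by breed. Depth does not limit miR-486: its smallest count was 383418.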
